A study of Mus musculus with 12 samples.

Results

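The acute phase protein genes Saa1, Saa2, Saa4, Hp, Orm1, Orm2, Orm3, Lcn2, Crp and Apcs were examined in the enhancer and promoter contact network of mouse hepatocytes. They are the 10 genes named as members, taken by exact name from the deposited gene column of both networks, among 9595 protein-coding genes listed at either age. H3K27ac Hi-ChIP, which captures contacts between chromatin regions that carry acetylated lysine 27 of histone H3, a mark of active promoters and enhancers, was done in liver hepatocytes taken from C57BL/6 males, either 5 months (young) or 25 months (old) of age. The 12 libraries comprise 6 per age, from 2 biological replicates in 3 technical batches each. Their authors deposited 1 network per age, made of 5 kb nodes grouped into sets called cliques, with the genes listed for each. No animal or batch is named in these tables and each was taken to pool its 6 libraries, so there is no spread between replicates, no test and no p-value, and the values below describe these 2 networks.

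Acute phase proteins are plasma proteins that the liver secretes in different amounts during infection or injury. Their genes respond mainly to interleukin-6 through the factor STAT3 and to interleukin-1 through NF-kappaB, with C/EBP factors acting at many of their promoters. Serum amyloid A and alpha-1-acid glycoprotein are strongly induced in mice, serum amyloid P is the main inducible pentraxin of this species, and C-reactive protein, the classical marker in humans, is only a modest reactant in mice.

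The young network held 56928 nodes in 5401 cliques and the old network 40304 nodes in 5973 cliques, with a mean clique of 10.5 and 6.75 nodes, and the depth behind either is unknown. Listing by a clique is not an expression level. Of 8 hepatocyte markers 7 were listed at either age, compared with 0 of 7 macrophage, 0 of 7 neutrophil, 0 of 5 B and T cell, 2 of 6 endothelial, 2 of 6 stellate and 1 of 5 cholangiocyte markers. The share of all protein-coding genes that were listed is not given for comparison. The hepatocyte markers also differed by age. Hnf4a was listed in young only, and the other 6 all had the smaller clique in old, as did 81.5% of all genes listed at both ages. After division by the mean clique of the age, 3 of the 6 were smaller and 3 larger. Cells pelleted at low speed after collagenase digestion were used, per the labels' protocols. A difference in the cells collected and a difference in the chromatin of each cell cannot be told apart.

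All 10 genes were listed at both ages, each in exactly 1 clique per age. Of the 8690 protein-coding genes listed in young, 72.0% were also listed in old. The members were taken by name from both networks, with earlier results of these data known. Their listing at both ages therefore cannot be compared with that share. The 10 genes lie at 5 loci and represent only 6 pairs of a young and an old clique, so the 3 Saa genes carry the same value, as do the 3 Orm genes. Clique size, the number of nodes in the clique that lists a gene, gave a different picture at each locus. The clique of the Orm genes numbered 36 nodes in young against 43 in old. Lcn2 was in cliques of 50 and 47 nodes and the Saa genes in cliques of 34 and 29. Hp was in cliques of 41 and 9 nodes, Crp of 22 and 3, and Apcs of 22 and 2.

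**Figure D1:**
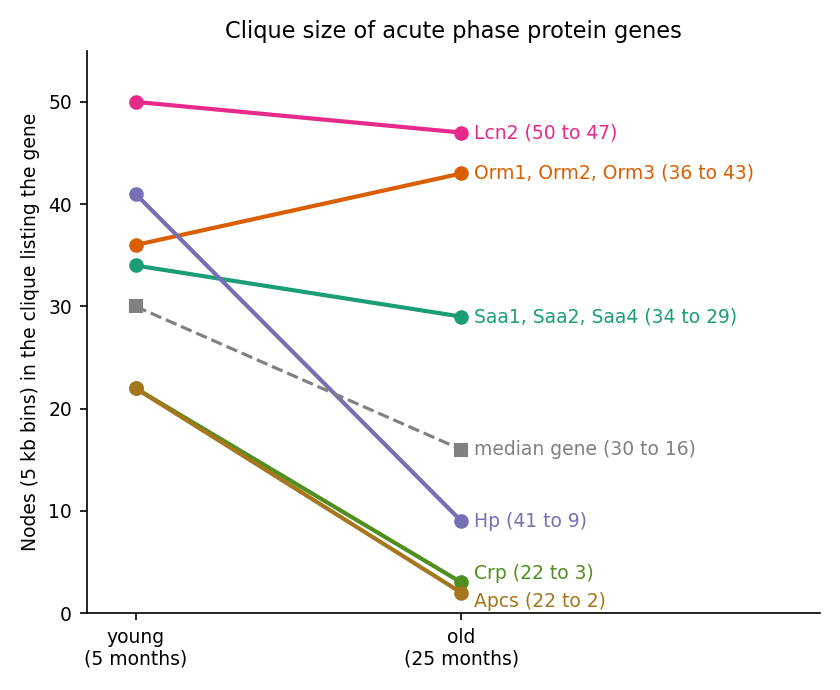
Number of 5 kb nodes in the clique that lists each acute phase protein gene in the young and the old network (y axis, linear from 0; 1 pooled network per age, so no error bars), with the median over protein-coding genes listed at both ages as a dashed grey line. Lcn2, Orm and Saa lines stay between 29 and 50 nodes, with Saa and Lcn2 slightly smaller in old as counted but larger once sizes are scaled to the mean clique at each age, and Hp, Crp and Apcs end at 9, 3 and 2 nodes.

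As counted, 7 of the 10 genes had the smaller clique in old and 3 the larger. Over the 6257 protein-coding genes listed at both ages, 81.5% had the smaller clique in old and 13.0% the larger, with medians of 30 nodes in young and 16 in old. A clique at least 2-fold smaller in old was found for 3 members, Hp, Crp and Apcs, and for 38.4% of all genes. None of the members was at least 2-fold larger in old, against 4.28% of all genes. The median log2((old + 1)/(young + 1)) was -0.63 over all genes listed at both ages and -0.22 over the members. The member value rests on the Saa and Orm genes, which repeat 1 value 3 times each: over the 6 pairs of cliques the median was -1.15, below the -0.74 over the 2825 pairs of all genes, so the order of the medians turned. By pair, 5 were smaller in old and 1 larger.

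Relative to the network of its own age, the order of several loci turned. The median gene moved from -0.63 to -0.01 on the log2 scale when sizes were divided by the mean clique of the age before 1 was added, and by this measure 7 members were larger in old and 3 smaller, against 49.0% and 51.0% of the 6257 genes. With genes that share both cliques counted once, the members gave 3 pairs larger in old and 3 smaller, against 43.1% larger among 2825 pairs of all genes. The Orm clique was 3.42 times the mean clique in young and 6.37 times in old. The Lcn2 clique was 4.74 and 6.97 times the mean, and the Saa clique 3.23 and 4.30 times, so both were smaller in old as counted and larger relative to the mean. Hp went from 3.89 to 1.33 times the mean, Crp from 2.09 to 0.445 and Apcs from 2.09 to 0.296, so these 3 were smaller in old on either scale. Among the log2 values of all 6257 genes, the value of the Orm genes (0.25) stood at percentile 90.6, Lcn2 (-0.09) at 79.4, the Saa genes (-0.22) at 71.8, Hp (-2.07) at 12.8, Crp (-2.52) at 9.48 and Apcs (-2.94) at 6.94.

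**Figure D2:**
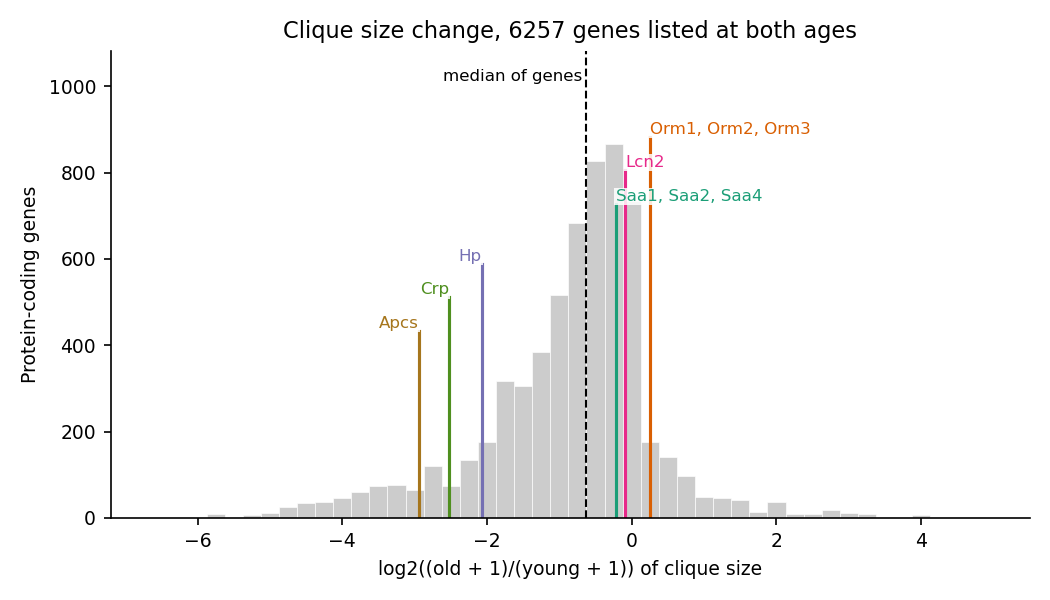
Distribution of log2((old + 1)/(young + 1)) of clique size over the 6257 protein-coding genes listed at both ages (grey bars, number of genes per 0.25 interval), with the median as a dashed line and the acute phase protein genes as coloured lines whose heights carry no value. The Orm, Lcn2 and Saa lines lie to the right of the median at -0.63 and the Hp, Crp and Apcs lines to its left.

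Serum amyloid A proteins are apolipoproteins of high-density lipoprotein. Saa1 and Saa2 encode the 2 inducible liver forms, and Saa4 a form that is made constitutively. The 3 genes lie side by side on chromosome 7 (mm10, coordinates from RefSeq GRCm38.p6), with Saa4 at 46727992 to 46732603, Saa1 at 46740497 to 46743181 and Saa2 at 46751833 to 46754313. The 250 bases before the start of Saa2 (GRCm38.p6 chr7:46751583-46751832, plus strand) are shown because Saa1 and Saa2 have nearly the same promoter. A gapped alignment of the pair matched 238 bases, which is 95.2% of the 250 in each sequence. Capitals mark the single match in Saa2 to the C/EBP-like letters TTNNGNAA, on the minus strand. Saa1 holds 2 matches, TTGCACAA and TTTCCCAA, so the copies differ in these letters.
Saa2: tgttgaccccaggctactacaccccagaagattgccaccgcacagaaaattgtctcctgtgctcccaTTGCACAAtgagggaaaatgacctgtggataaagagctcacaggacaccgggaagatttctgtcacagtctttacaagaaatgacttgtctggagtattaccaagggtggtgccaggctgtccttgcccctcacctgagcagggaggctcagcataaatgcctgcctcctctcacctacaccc
None of the sources used here says how reads from such near-identical copies were assigned, so the separate contributions of Saa1 and Saa2 are uncertain.

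Every bin over the body of Saa1, Saa2 and Saa4 was a node at both ages. The young Saa clique spanned 300 kb, from 46710001 to 47010000, and the old one 305 kb, from 46715001 to 47020000. Of the 34 young nodes 24 (70.6%, 95% Wilson interval 53.8 to 83.2) were nodes in old, and all 24 lay in the old clique that lists the same Saa genes. Over the whole young network 55.6% of nodes were present in old, and among 336 young cliques of 28 to 42 nodes the median share was 63.6%. Of the 29 old nodes 82.8% were present in young, against 78.5% of all old nodes. The median was 91.3% among 246 old cliques of 24 to 36 nodes. The Jaccard index of the pair, shared nodes divided by nodes in either clique, was 0.615, with a median best index of 0.50 among the 336 young cliques. Within 100 kb of the start of Saa1 there were 21 young and 17 old nodes, 15 of them shared. The numbers were 14 and 9 within 50 kb, and within 250 kb they were equal at 33. The 250 kb window held nodes of 1 young and of 4 old cliques. Over the joint span of the young and old Saa cliques there were 34 young and 29 old nodes.

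The genes listed beside each member were compared between the ages. No share over all genes is given for comparison, here or at the other loci. These counts therefore do not show whether more or fewer companions stayed than for other genes. Of the 10 protein-coding genes listed beside Saa1 in young, 8 were listed beside it in old, which is 80.0% of the young set and 100% of the old. These were Saa2, Saa4, Saa3, the lysosome-related organelle gene Hps5, the general transcription factor subunit gene Gtf2h1, the lactate dehydrogenase gene Ldha, the endosomal sorting gene Tsg101 and Spty2d1. Saa3, an acute phase gene with strong expression outside the liver, thus had 34 and 29 nodes as well. Saal1 and Uevld were listed in the young clique only, and in no clique in old.

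Orm1, Orm2 and Orm3 encode alpha-1-acid glycoproteins, lipocalins of plasma that bind drugs and modulate immunity. They lie on chromosome 4, with Orm1 at 63344556 to 63348163, Orm3 at 63356069 to 63359506 and Orm2 at 63362449 to 63365877. Upstream of their starts, a gapped alignment of Orm2 and Orm3 matched 219 bases, which is 87.6% of the 250 in each sequence. Whether reads of these copies could be told apart is not known. The 250 bases before Orm2 (GRCm38.p6 chr4:63362199-63362448, plus strand) hold 2 matches to TTNNGNAA, in capitals, of which TTGCGCAA matches on both strands.
Orm2: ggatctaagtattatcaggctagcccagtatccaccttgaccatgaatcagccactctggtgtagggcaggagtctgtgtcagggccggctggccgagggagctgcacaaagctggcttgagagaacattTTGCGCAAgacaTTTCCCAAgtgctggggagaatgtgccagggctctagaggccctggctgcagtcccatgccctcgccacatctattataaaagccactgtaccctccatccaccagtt
The matching position of Orm3 holds TTGCACAA, on the minus strand only. These matches describe letters and are not evidence of binding.

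As counted, the Orm clique was the only member clique with more nodes in old, and it was also larger relative to the mean clique. Every bin over the 3 genes was a node at both ages. Of 36 young nodes 33 (91.7%, 78.2 to 97.1) were present in old, all in 1 clique, and the Jaccard index was 0.717. Among 341 young cliques of 29 to 45 nodes the median share present in old was 64.5%, and 3, with the Orm clique counted, had a share at least as high. Of the 43 old nodes 76.7% were present in young, against 78.5% of all old nodes. The median was 91.5% among 128 old cliques of 35 to 53 nodes. With the Orm clique counted, 6 of the 128 had a share as low. The old clique held 10 nodes that were not in the young network, 7 inside the young span and 3 beyond its Orm2 end. Within 100 kb of the start of Orm2 there were 16 nodes in young and 21 in old, of which 14 were shared.

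The same 5 protein-coding genes were listed beside each Orm gene at both ages. For Orm1 these were Orm2, Orm3, the collagen gene Col27a1, the kinesin gene Kif12 and Ambp, which encodes the precursor of alpha-1-microglobulin and bikunin and lies 190 kb away. The longest unbroken run of nodes measured 75 kb in the young clique, compared with 110 kb in the old.

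**Figure D3:**
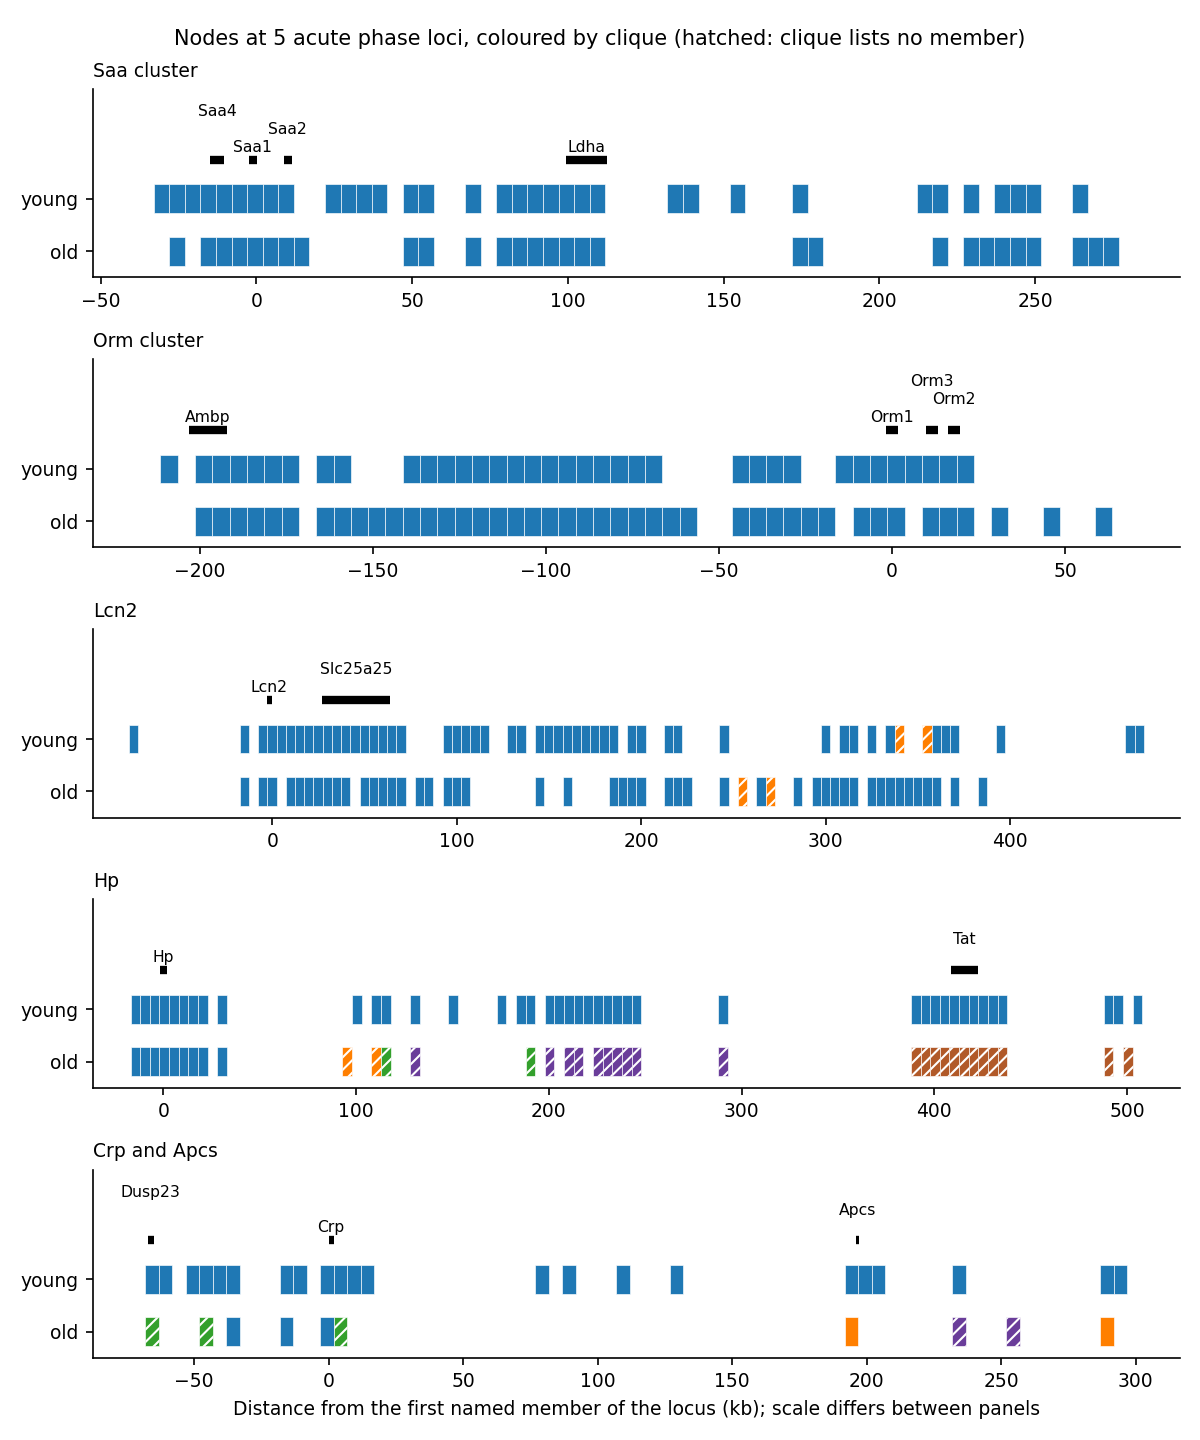
Nodes (5 kb boxes) of the young and old networks at the 5 loci, against distance in kb from the start of the first member named (midpoint of the gene for Orm1 and Hp). Each colour in a row is 1 clique, hatching marks cliques that list no member, colours are not matched between rows, and black bars are genes. The panels of Saa and Orm show 1 clique at each age, that of Lcn2 also shows 2 nodes of another clique at each age, and the single young cliques at Hp and at Crp and Apcs stand above several old cliques.

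Lcn2 encodes lipocalin 2, which binds bacterial siderophores and so withholds iron, and which neutrophils and macrophages also express. It lies on chromosome 2 at 32384637 to 32387739. None of the 7 neutrophil and 7 macrophage markers was listed at either age, but listing by a clique does not measure which cells were present. The cells behind the Lcn2 nodes were not tested. Lcn2 was in the largest of the member cliques at both ages, with 50 nodes over 550 kb in young and 47 nodes over 405 kb in old. Of the young nodes 33 (66.0%, 52.2 to 77.6) were present in old, all in the old clique that lists Lcn2. This was close to the median of 66.7% among 224 young cliques of 40 to 62 nodes. Of the old nodes 74.5% were present in young, against 78.5% over the whole old network. The median was 91.3% among 103 old cliques of 38 to 58 nodes. With the Lcn2 clique counted, 4 of the 103 had a share as low. The Jaccard index was 0.516. The cliques of similar size covered partly different nodes, as 17 young nodes were absent from old, and 12 old nodes were absent from young. Another 2 old nodes belonged to a separate young clique of 2 nodes without a listed gene. Within 100 kb of the gene start there were 21 young and 19 old nodes, 17 of them shared.

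The genes listed beside Lcn2 differed in both directions. Of 13 protein-coding genes in young and 14 in old, 11 were common, which is 84.6% of the young and 78.6% of the old set. The nearest were 1110008P14Rik, the prostaglandin E synthase gene Ptges2, Naif1, Fam102a, the dolichol-phosphate mannose synthase subunit gene Dpm2 and Pip5kl1. The mitochondrial carrier gene Slc25a25 and Cfap157 were beside Lcn2 in young only, and the folate polyglutamation gene Fpgs, Ttc16 and 6330409D20Rik in old only. The 250 bases before Lcn2 (GRCm38.p6 chr2:32387740-32387989, minus strand) are shown because it was the single member promoter with a match to the NF-kappaB-like motif, GGG and TCC separated by any 4 bases. The match, GGACTACCCC, is on the strand opposite to the gene. The other capitals, TTGCTCAA, match TTNNGNAA.
Lcn2: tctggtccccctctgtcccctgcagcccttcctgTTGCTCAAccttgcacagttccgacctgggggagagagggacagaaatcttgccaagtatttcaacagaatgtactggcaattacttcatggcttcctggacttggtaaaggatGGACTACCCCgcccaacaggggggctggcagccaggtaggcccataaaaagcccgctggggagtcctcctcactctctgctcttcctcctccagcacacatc

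Hp encodes haptoglobin, which captures free haemoglobin, and lies on chromosome 8 at 109575128 to 109579172. Its bin was a node at both ages, and the nodes next to it were the same in both: 9 young and 9 old nodes lay within 50 kb of the gene midpoint and all 9 were shared, and within 100 kb 9 of 10 at each age were. The difference lay farther out. The young clique held 41 nodes over 525 kb, and the old one held 9 nodes over 50 kb, from 109560001 to 109610000, all of them nodes of the young clique.

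Most of the young Hp clique was still present in the old network, in other cliques. Of the 41 nodes 33 (80.5%, 66.0 to 89.8) were old nodes, against a median of 66.0% among 286 young cliques of 33 to 51 nodes. They lay in 5 old cliques, of 12, 10, 9, 2 and 2 nodes, where the median of those cliques was 2, and 35 of the 286 lay in at least 5. Only 9 of the 33 were in the clique that lists Hp, and 24 were in the other 4. The best Jaccard index, with the old clique of 12 nodes, was 0.262, and the median best index of the 286 was 0.511. In old, Hp was listed with Txnl4b, the splicing helicase gene Dhx38 and Dhodh, an enzyme of pyrimidine synthesis, which lie 1.08, 9.27 and 14.1 kb from it, and these 3 were 33.3% of its 9 young companions. The tyrosine aminotransferase gene Tat, 407 kb from Hp, was in the young Hp clique and in an old clique of 12 nodes with Zfp612. Zfp821, the clathrin adaptor gene Ap1g1 and the phosphatase gene Phlpp2 were in the old clique of 10 nodes, and Ist1 was in a clique of 2.

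**Figure D4:**
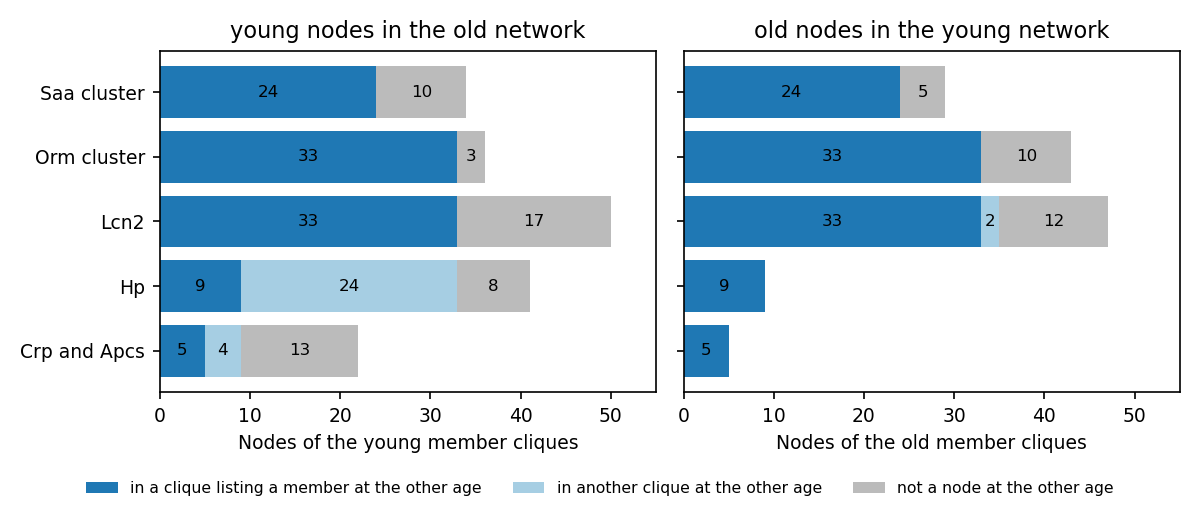
Number of nodes of the young member cliques (left) and of the old member cliques (right) that lay at the other age in a clique listing a member of the same locus (dark blue), in another clique (light blue) or in no clique (grey), with counts in the bars. At Hp 24 of 41 young nodes were in old cliques without a member, and at Crp and Apcs 13 of 22 young nodes were not nodes in old.

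Crp and Apcs encode the short pentraxins C-reactive protein and serum amyloid P, pattern recognition proteins that bind microbial surfaces and damaged cells. They are 194 kb apart on chromosome 1, Crp at 172698056 to 172699966 and Apcs at 172893961 to 172895054. In young both were listed in 1 clique of 22 nodes over 365 kb, together with the phosphatase gene Dusp23. In old they were in separate cliques, Crp in one of 3 nodes over 40 kb and Apcs in one of 2 nodes over 100 kb, and no protein-coding gene was listed beside either.

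This locus had fewer nodes in old, 10 against 22, as well as smaller cliques. The whole network also had fewer nodes in old, 40304 against 56928. Of the 22 young nodes 9 (40.9%, 23.3 to 61.3) were present in old, against a median of 57.9% among 406 young cliques of 18 to 27 nodes. With this clique counted, 78 of the 406 had a share as low, and the interval includes the median. The 9 were spread over 4 old cliques, which listed Dusp23, Crp, Apcs and the olfactory receptor gene Olfr16, and 38 of the 406 cliques were spread over at least 4. Counting a young node as matched when the same or the next bin was an old node gave 16 of 22 (72.7%). The median of 57.9% rests on identical bins and cannot be compared with that share. Within 100 kb of the start of Crp there were 14 nodes in young and 6 in old, all 6 of them shared. Around Apcs there were 8 and 4, of which 3 were shared.

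At the gene starts themselves the pentraxin genes differed. The bin over Crp, 172695001 to 172700000, was a node at both ages. The gene start of Apcs lies in the bin from 172895001 to 172900000, which was a node in young and not in old, while the bin over the rest of the gene, 54 bp from the gene start, was a node at both ages. Assigning genes by the node at the gene start would thus leave Apcs with no old clique. Its start stands close to the edge between these bins, so the 5 kb grid bears on that difference. The 250 bases before the starts of Crp (GRCm38.p6 chr1:172697806-172698055, plus strand) and Apcs (chr1:172895055-172895304, minus strand) are shown to compare these genes.
Crp: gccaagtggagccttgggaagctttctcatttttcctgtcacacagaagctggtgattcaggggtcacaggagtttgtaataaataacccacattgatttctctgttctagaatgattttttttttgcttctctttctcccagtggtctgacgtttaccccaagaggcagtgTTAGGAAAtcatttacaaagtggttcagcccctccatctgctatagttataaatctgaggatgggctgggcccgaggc
Apcs: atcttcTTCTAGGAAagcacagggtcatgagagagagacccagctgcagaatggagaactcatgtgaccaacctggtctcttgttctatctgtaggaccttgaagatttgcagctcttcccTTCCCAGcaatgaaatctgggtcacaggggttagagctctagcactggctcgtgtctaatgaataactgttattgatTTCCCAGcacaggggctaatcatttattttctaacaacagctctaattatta
In Crp the capitals mark 1 match to TTNNGNAA. In Apcs they mark 1 match to the STAT3-like letters TTCNNNGAA and 2 to CTGGGAA, read as TTCCCAG, and none of the letters TTNNGNAA is found.

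Over the 8 members with a promoter sequence, 7 held a match to TTNNGNAA, which 36.8% of all 32851 promoter sequences of the same length hold. Both strands were searched in the 250 bases before each gene start. The NF-kappaB-like motif was found in 1 member (16.5% of all promoters), TTCNNNGAA in 1 (7.02%) and CTGGGAA in 1 (9.10%). The NF-kappaB consensus, which is a case of the NF-kappaB-like motif, and an HNF1-like palindrome were found in 0 of 8 members, and in 0.140% and 0.00913% of all promoters. The Saa1 and Saa2 sequences and those of Orm2 and Orm3 are near copies, so these counts are not independent.

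Other genes of the acute phase response were taken as 3 lists. The first held 35 further genes taken as induced in the response, and whether each is induced in mice was not tested. Of all 9595 protein-coding genes listed at either age, 6257 were listed at both. Of the 35 genes, 25 were listed at either age and 23 at both. Of these 23, 19 had the smaller clique in old, 3 the larger and 1 an equal one, with medians of 41 and 25 nodes, near the 81.5% smaller over all genes. Once scaled to the mean clique at each age 12 were smaller and 11 larger, near the 51.0% and 49.0% over all genes. These 23 genes represent 17 pairs of cliques, 13 of them smaller in old as counted. The larger ones as counted were the complement gene C3 (30 and 116 nodes), Lrg1 (67 and 116) and Ambp, which shares the Orm clique. Cd14, a lipopolysaccharide co-receptor, was in cliques of 32 and 2 nodes, the metallothionein gene Mt1 of 7 and 2, and the fibrinogen-like gene Fgl1 of 88 and 35. Next in size came Itih3 and Itih4, in cliques of 41 and 17 nodes.

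All 13 listed genes of 14 plasma proteins and hepatocyte products that decrease in the response had the smaller clique in old as counted, with medians of 31 and 16 nodes, while after scaling to the mean clique at each age 7 were smaller and 6 larger. These 13 genes represent 11 pairs of cliques, and the shares smaller over all genes were 81.5% as counted and 51.0% after scaling. The steepest were Cyp2e1 (148 and 5 nodes), F12 (23 and 7), Rbp4 (23 and 9) and Igf1 (27 and 12). Among 23 genes of signalling proteins and transcription factors, 17 appeared in both networks, and all 17 had the smaller clique in old as counted, with medians of 40 and 23 nodes. After scaling 10 were smaller and 7 larger, and the shares smaller over all genes are again 81.5% and 51.0%. The interleukin-6 receptor subunit gene Il6st was in cliques of 68 and 13 nodes, Il1rap of 19 and 5, Tnfrsf1a of 119 and 35 and Stat3 of 60 and 18. Another 4 genes of this list were listed in young only and 1 in old only.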

How the data were processed

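H3K27ac Hi-ChIP libraries of hepatocytes were grouped by age from the sample titles, 6 young and 6 old. The authors deposited, per age, a table of node positions and a table of cliques with node numbers and gene names. Bowtie2 and HiC-Pro, with mm10 and GRCm38, are named without versions in the submitters' processing notes. None of the sources used here gives the loop caller, the way cliques were formed or the rule that lists genes. Every node was a 5 kb bin in exactly 1 clique of at least 2 nodes.

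Nodes were matched between ages as identical bins. A gene took the largest clique listing it, and sizes were compared as log2((old + 1)/(young + 1)). A gene in cliques at least 2-fold apart was counted as such. Cliques of like size had 0.8 to 1.25 times the nodes. Wilson 95% intervals cover counting error only and treat neighbouring nodes as independent. Of 16197 listed names, those matching protein-coding genes of RefSeq GRCm38.p6 by symbol or unique synonym gave the background. Promoters were 250 bases from RefSeq, for 8 of 10 members (none for Hp and Orm1, whose windows were centred on the gene midpoint). Matching was tested on simulated networks. Python 3.11.15, pandas 2.3.3 and scipy 1.17.1 were used.

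The members and lists were chosen with earlier results of these data known. The text names all members, list genes sharing their cliques, the up to 6 nearest companions at both ages, up to 4 nearest genes of matched cliques, and up to 4 list genes with the largest losses and gains; other companions of the members were named after their values were seen. Alternatives covered gene assignment, scale, pseudocount, minimum clique size, bin matching and window.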

Additional observations from a re-analysis of the deposited data

How the results depend on the processing

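Dividing sizes by the mean of the age, or replacing them by percentiles among listed genes, turned the count of members smaller in old from 7 to 3 and the count larger in old from 3 to 7 in each case, with the Saa genes and Lcn2 as the ones that changed side. Over all 9595 genes the larger ones went from 1716 to 3973 by the mean and 4432 by percentile. Hp, Crp and Apcs were smaller in old, and the Orm genes larger, under each of the alternatives that gave them a value. Relative to the median gene of the same setting, 7 members stood above and 3 below in each setting in which all 10 had a value. Counting each pair of cliques once, an alternative chosen after seeing the data, gave 5 smaller and 1 larger as counted, and a median of -1.15 in place of -0.22. With cliques of at least 3 nodes Apcs had no old clique. Matching a node to the same or the next bin raised the share of young nodes present in old to 79.4% at Saa, 97.2% at Orm, 95.1% at Hp and 84.0% at Lcn2. This looser rule cannot lower the share of any clique. No share over all nodes or over cliques of like size is given under it. Windows of 50, 100 and 250 kb gave ratios of old to young nodes of 0.643, 0.81 and 1.0 around Saa1. The gene start was not available for Hp and Orm1. No paired analysis was possible because the networks name no replicate, and for the same reason no replicate could be left out. Since the depth behind the networks is unknown, node numbers of the 2 ages may also differ through it, which was not tested.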

Other observations

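The member cliques differed in how densely they filled their span. Nodes covered 76.6% of the span of the young Orm clique and 81.1% of the old one, where the medians of cliques of like size were 51.5% and 47.8%, and 8 of 128 such old cliques, the Orm clique included, were at least as dense. The old Hp clique covered 90.0% of its 50 kb, with a median of 36.0% among 357 old cliques of 8 to 11 nodes. The young Crp and Apcs clique covered 30.1% of its span, below the median of 48.8% for its size. The Saa clique covered 56.7% in young and 47.5% in old, and the Lcn2 clique 45.5% and 58.0%. These shares describe the 2 networks and were not tested.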
